A study of Aspergillus oryzae with 20 samples.

Results

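The 150 genes with the highest median RPKM over 20 libraries of Aspergillus oryzae, the filamentous fungus used to make koji, were described here, out of 12074 genes listed per library. They were ranked by that median over all strains together, after 12 listed genes had been set aside by identifier, 3 of which had medians above that of rank 150. Their high level is therefore how they were chosen and not a finding, while the ranking gives no direction between strains. RPKM divides the reads of a gene by its model length and by the mapped reads of its library, so it compares levels between genes per unit of length. The 5 lowest-ranked members had median levels of 4292.3 (AO090124000071), 4260.2 (AO090023000711), 4213.2 (AO090038000432), 4209.5 (hel10) and 4194.1 RPKM (AO090010000480, rank 150). The next genes stood at 4139.9 (AO090672000001), 4135.7 (AO090009000405), 4131.5 (AO090001000061), 4125.5 (AO090009000190) and 4093.8 RPKM (AO090003000121), so no gap separated them.

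The fungus was grown on moist wheat bran for 72 h at 30 °C, and total RNA of the frozen, ground culture was sequenced. The 4 strains have the RIB40 background and are labelled pyrG+ ligD+. They are the deletion control (del-pyrG[pyrG+ ligD+]), the ΔadmA strain, the ΔadmB strain and the ΔadmAΔadmB strain, whose genotypes add del-admA, del-admB or both to that of the control. All 4 genotypes thus list both del-pyrG and, in brackets, pyrG+ and ligD+, and the labels do not explain the brackets. Each strain has 5 libraries. Whether these are separate cultures is not stated, and a p-value here therefore reflects only differences among the libraries, technical ones included.

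In a fungus growing over a solid substrate, the most abundant messenger RNAs usually include those for ribosomal proteins and histones, for enzymes of central carbon and nitrogen metabolism, for proteins that detoxify reactive oxygen, and for secreted enzymes and surface proteins. Solid culture exposes the mycelium to a dry surface and to air, and the hyphae at different depths of the bran are of different ages. A messenger RNA level measured over a whole culture averages all of these hyphae.

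The libraries differed in ways that the strains do not account for. The sum of RPKM ranged from 3974009 to 5401733 per library, and the depth in reads is unknown. Estimated from the smallest steps between low values, depth relative to the shallowest library ranged from 1.00 to 2.15. Those steps also split the libraries into 2 sets. Set 1 holds 12 libraries, which are replicates 1 and 5 of the control, 1, 4 and 5 of ΔadmA, 1, 3, 4 and 5 of ΔadmB, and 1, 4 and 5 of ΔadmAΔadmB. Set 2 holds the other 8, which are replicates 2, 3 and 4 of the control, 2 and 3 of ΔadmA, 2 of ΔadmB, and 2 and 3 of ΔadmAΔadmB. The labels and headers do not say what the sets are. The targeted gene admA (AO090138000114) was listed at 0 to 14.2 RPKM in the control, at 0 to 0.0917 RPKM in ΔadmA, at 0.208 to 3.42 RPKM in ΔadmB and at 0 RPKM in every ΔadmAΔadmB library. As 0 also occurs in the control, its level does not check the labels of single libraries.

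The 150 genes held 33.8% to 44.5% of the RPKM sum of a library, with a mean of 40.1% over the 20. Their shares in replicates 1 to 5 were 44.5%, 39.7%, 39.8%, 41.9% and 33.8% in the control, and 43.7%, 38.1%, 36.8%, 40.6% and 36.0% in ΔadmA. They were 43.2%, 39.8%, 39.9%, 41.4% and 41.0% in ΔadmB, and 43.7%, 39.1%, 39.0%, 40.4% and 39.7% in ΔadmAΔadmB. Replicate 1 had the highest share in each strain, and the strains overlapped throughout. The control had a mean of 39.9% ± 3.96 (SD, n = 5), ΔadmA one of 39.1% ± 3.14, ΔadmB one of 41.1% ± 1.36 and ΔadmAΔadmB one of 40.4% ± 1.94. These means differed by less than the SD of the control, which is the largest of these SDs. In RNA of a whole culture, fewer hyphae of a kind and less RNA per hypha cannot be told apart. No p is given for a share, because it is a score over members chosen by level.

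Within set 1 the mean share was 39.2% for the control (n = 2), 40.1% for ΔadmA (n = 3), 41.4% for ΔadmB (n = 4) and 41.3% for ΔadmAΔadmB (n = 3). Within set 2 it was 40.5% for the control (n = 3), 37.5% for ΔadmA (n = 2), 39.8% for the single ΔadmB library and 39.1% for ΔadmAΔadmB (n = 2). The leading 10 members held 13.5% ± 1.92 (SD, n = 12) of the sum in set 1 and 9.80% ± 1.01 (SD, n = 8) in set 2. AO090003000005, which separates the sets as described below, held 1.96% of it in set 1 and 0.0115% in set 2, and the other 9 held 11.6% ± 1.49 and 9.79% ± 1.01. The 12 genes set aside took 0.585% to 14.1% of the sum, the most in replicate 5 of the control, where the 150 had their lowest share. As a share of the sum without those 12 genes, the control had 41.7% ± 2.21 (SD, n = 5), ΔadmA 40.6% ± 2.58, ΔadmB 45.0% ± 1.06 and ΔadmAΔadmB 43.8% ± 2.75. On that sum the means of ΔadmB and the control differed by more than the SD of the control. The ΔadmB libraries, at 44.20% to 46.38%, then lay above those of ΔadmA, at 38.26% to 44.17%, by a narrow gap.

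**Figure D1:**
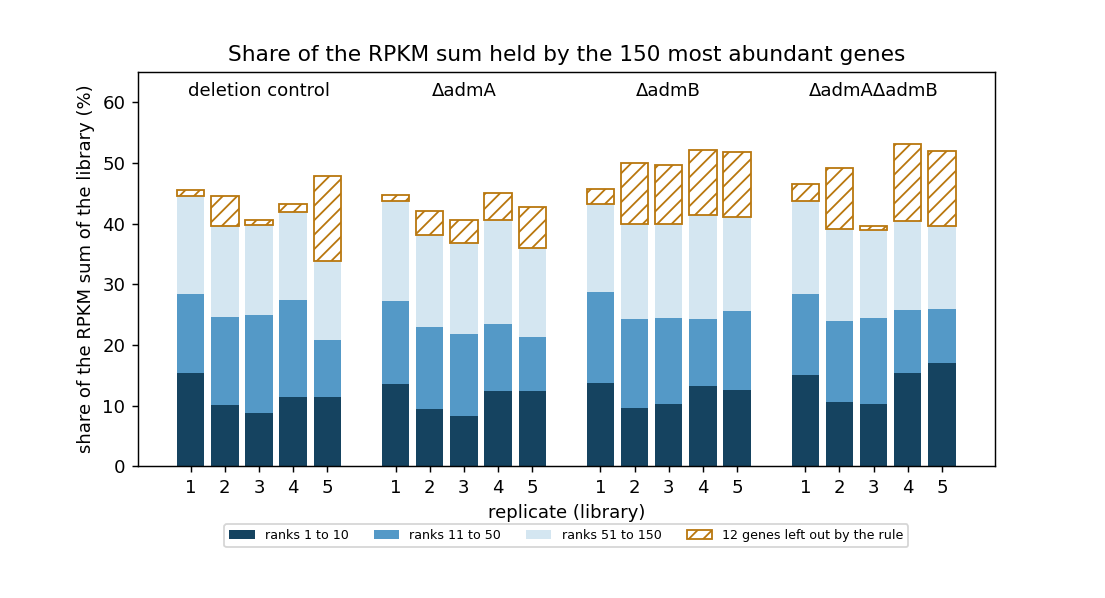
Share of the RPKM sum of each library, in percent, held by the 150 genes (solid bars, with the leading members darkest) and by the 12 genes set aside (hatched, stacked on top), by strain and replicate. The solid bar of replicate 1 is highest in each strain, and the lowest value is 33.8% in replicate 5 of the control.

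The members changed places between libraries. Of the 150, between 94 (control, replicate 5) and 122 (ΔadmB, replicate 3) were among a library's own 150 most abundant genes outside those set aside. In all 20 libraries 43 members were so, 126 members were so in at least 10, and the lowest number for a member was 4 libraries. In all, 441 genes reached the top 150 of some library, of which 291 are not members. The most abundant single member was AO090026000175 in 10 libraries, AO090026000254 in 5, AO090005001622 in 4 and AO090003000005 in 1.

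AO090026000175, the member of highest median at 114968.5 RPKM, has no symbol in the reference table. Its levels in replicates 1 to 5 were 64495, 42306, 57026, 46887 and 218541 RPKM in the control and 40070.4, 67615, 109494, 123815 and 138407 RPKM in ΔadmA. They were 57649.7, 120443, 136910.0, 200191 and 130927 RPKM in ΔadmB and 65246, 172756, 84988, 312419 and 388601 RPKM in ΔadmAΔadmB. The strains overlapped. It held up to 7.53% of a library's sum, in replicate 5 of ΔadmAΔadmB.

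AO090026000254, second by median at 73153.1 RPKM, likewise has no symbol. It stood at 151252, 61849, 37939.9, 59806 and 38627 RPKM in the control and 161674, 31949, 29191, 155888 and 103874 RPKM in ΔadmA. It stood at 121122, 27834, 61834, 111176 and 69898 RPKM in ΔadmB and 129866, 25919, 78461, 102161 and 76408 RPKM in ΔadmAΔadmB. Replicate 1 was the highest library of each strain, and the strains overlapped. AO090005001622, next at 70093.4 RPKM, was steadier, ranging from 27537.8 to 96019.9 RPKM. Replicate 5 was its lowest library in each strain.

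The other members of the first 20 without a symbol were AO090120000080 (41991.8 RPKM), AO090003000005 (39054.9 RPKM), AO090001000412 (35377.4 RPKM), AO090020000122 (28504.0 RPKM), AO090009000698 (26008.5 RPKM), AO090010000482 (25202.2 RPKM), AO090012000997 (18662.9 RPKM), AO090023000830 (17528.8 RPKM), AO090003001277 (16938.0 RPKM), AO090701000013 (14867.8 RPKM) and AO090003000725 (14842.7 RPKM), by median level. The reference gives them no role, and none is given here.

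A symbol was available for 21 of the 150 members (14%), against 714 of the 12074 genes listed (5.91%). The other 129 members have none, so the functions below describe a minority of the set. Of 14 lists of genes by function, built from symbols, 8 members fell into 6. They were 2 of 6 ribosomal proteins (rpp1 and rps1), 1 of 2 histones (hhtA), 1 of 12 chaperones and prolyl isomerases (cyp4), 1 of 6 energy genes (cox5b), 2 of 5 redox genes (sod1 and cat1) and 1 of 10 nitrogen and amino acid genes (glnA). The symbol rpp1 is also used for a subunit of ribonuclease P, so its place among the ribosomal proteins is not settled. No member fell into the lists of translation factors (5 genes), glycolysis and fermentation (3), plant polysaccharide degradation (11) or proteases (3). None fell into those of vitamins (1), cytoskeleton and ubiquitin (3) or sterol synthesis (15), and the list of surface proteins matched no symbol in the files. The lists go by the spelling of a symbol, so aspf22, skpA and wos2, described below, are in none of them. A list without members therefore does not show that its function is absent from the 150. None of the listed members was called in any strain comparison. Over all 14 lists, 1 of the 15 sterol genes, which is not a member, was called higher in ΔadmA than in the control and lower in ΔadmAΔadmB than in ΔadmA.

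Among genes of metabolism, glnA, the symbol of glutamine synthetase, had the highest level of the 21 with a median of 37330.1 RPKM. Its levels were 25388, 43328, 22241, 36114 and 60005 RPKM in the control and 29314, 36369, 44283, 33218 and 59269 RPKM in ΔadmA. They were 37099, 44878, 40003, 37562 and 50614 RPKM in ΔadmB and 30397, 55256, 23823, 36175 and 57335 RPKM in ΔadmAΔadmB. The strains overlapped, and replicate 5 was the highest library in each. glpV, the symbol of glycogen phosphorylase, which releases glucose phosphate from stored glycogen, had a median of 27773.5 RPKM. It stood at 49047, 53766, 38375, 40399 and 5232 RPKM in the control and 41207, 24892, 6395, 13466 and 4299 RPKM in ΔadmA. It stood at 50414, 32686, 14675, 3735 and 26526 RPKM in ΔadmB and 58293, 29021, 32877, 12333 and 4209 RPKM in ΔadmAΔadmB. Replicate 1 was high in every strain, and the lowest library of each was replicate 5 except in ΔadmB, where it was replicate 4.

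ugp1, the symbol of the pyrophosphorylase that makes UDP-glucose, had a median of 13808.1 RPKM and ranged from 5798.5 to 27529.9 RPKM. tktA, the symbol of transketolase in the pentose phosphate pathway, had a median of 6997.5 RPKM and ranged from 1917.6 to 14143.2 RPKM. gfa1, the symbol of the amidotransferase that begins the synthesis of amino sugars for chitin, had a median of 8916.9 RPKM. Its levels were 8295, 20287, 2698, 7197 and 17207 RPKM in the control, 7617, 14445, 3563, 21641 and 19883 RPKM in ΔadmA, 3089, 16825, 17756, 6033 and 9539 RPKM in ΔadmB and 20070.2, 3135, 2909, 23613 and 6141 RPKM in ΔadmAΔadmB. High and low libraries of gfa1 occurred in every strain, with no shared order of replicates.

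fdh, the symbol of formate dehydrogenase, which oxidizes formate to carbon dioxide, had a median of 5094.1 RPKM. Its levels were 5911, 6338, 7995, 7509 and 1262 RPKM in the control, 4666, 6826, 5754, 1958 and 1727 RPKM in ΔadmA, 7832, 4789, 4918, 336 and 2275 RPKM in ΔadmB and 6978, 5269.8, 7829, 1611 and 1056 RPKM in ΔadmAΔadmB. Replicate 4 or 5 was the lowest library of each strain. aspf22, named for an allergen of Aspergillus fumigatus that is an enolase, had a median of 4492.6 RPKM and ranged from 1688.8 to 6156.4 RPKM. cox5b, the symbol of a subunit of cytochrome c oxidase, had a median of 6061.4 RPKM and ranged from 1648.8 to 18876 RPKM. osm1, which in Saccharomyces cerevisiae is a fumarate reductase, had a median of 6606.7 RPKM and is described with the sets below.

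Of the genes that handle reactive oxygen, sod1, the symbol of the copper-zinc superoxide dismutase, had a median of 16167.1 RPKM. It stood at 16488, 17054, 18446, 20281 and 5925 RPKM in the control, 17104, 13043, 13081, 9224 and 6312 RPKM in ΔadmA, 23239, 16258, 16352, 12339.5 and 15502 RPKM in ΔadmB and 21056, 16077, 17774, 13507 and 11767 RPKM in ΔadmAΔadmB. Replicate 5 was the lowest library in all strains but ΔadmB, and the strains overlapped. cat1, the symbol of a catalase in Aspergillus fumigatus, had a median of 4779.0 RPKM and ranged from 2576.3 to 10968.7 RPKM.

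Of the genes for ribosomes and chromatin, rpp1 had a median of 31197.1 RPKM and ranged from 12049.8 to 58815.7 RPKM. The symbol rpp1 is used for an acidic protein of the ribosomal stalk and also for a subunit of ribonuclease P, and the table does not say which this is. rps1, the symbol of a protein of the small ribosomal subunit, had a median of 14433.5 RPKM and was highest in replicate 1 of each strain. hhtA, the symbol of histone H3, had a median of 17247.8 RPKM and ranged from 12802.1 to 23075.3 RPKM.

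Of the genes for folding and signalling, wos2, the symbol of a p23 co-chaperone of Hsp90 in Schizosaccharomyces pombe, had a median of 15046.6 RPKM and ranged from 7046.3 to 23278.1 RPKM. cyp4, the symbol of a cyclophilin, a prolyl isomerase, had a median of 6485.8 RPKM and ranged from 3472.2 to 10211.6 RPKM. rho1, the symbol of the small GTPase that in yeast governs glucan synthesis in the cell wall, had a median of 10906.8 RPKM. artA, the symbol of a 14-3-3 protein in Aspergillus nidulans, had a median of 5753.1 RPKM and ranged from 3717.6 to 7178.4 RPKM. skpA, the symbol of the Skp1 subunit of SCF ubiquitin ligases, had a median of 4778.2 RPKM and ranged from 4265.6 to 7634 RPKM. The last members with symbols, pps1 and hel10, had medians of 5141.3 and 4209.5 RPKM.

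**Figure D2:**
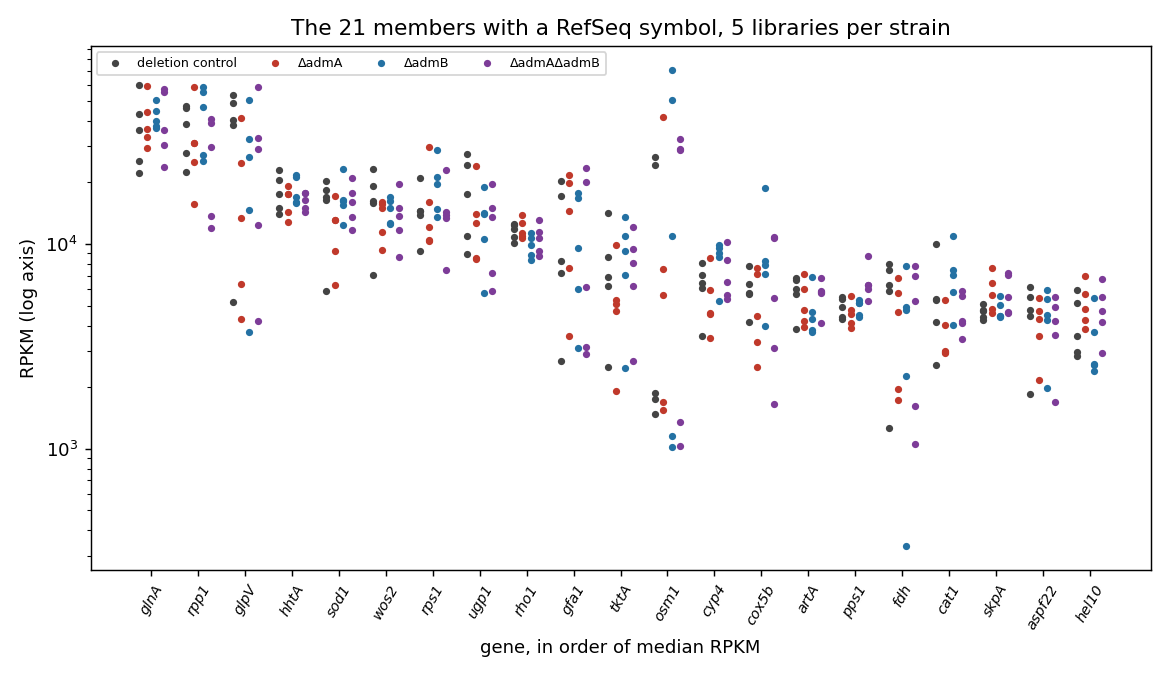
RPKM of the 21 members that have a symbol in the reference table, on a log axis, with each library as a point and the strains side by side in colour. The points of glpV, fdh, gfa1 and osm1 are spread widely and those of rho1 and hhtA narrowly, and the strains overlap for each gene.

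The members varied between libraries about as much as other genes. The SD of log2(RPKM + 1) over the 20 libraries had a median of 0.58 over the members, 0.64 over the next 150 genes and 0.61 over the 10652 genes tested. An SD of 1 or more was found for 45 members (30.0%) and for 28.7% of genes tested, and an SD of 2 or more for 14 members (9.33%) and 6.85% of genes tested. Strain took a median of 18.1% of a member's variance, the set 6.17% and the replicate number 39.0%, against 16.9%, 5.77% and 33.0% over the genes tested. A larger number of classes takes a larger share without any effect, and there are more replicate numbers than sets. The 3 shares can therefore not be set against each other directly. How far the number of classes accounts for the 39.0% of the replicate number was not tested. The ratio of a member's highest to its lowest library had a median of 4.21, was under 4 for 72 members and was over 100 for 19.

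The steadiest member was rho1, with an SD of 0.20. Its levels were 12493, 10819.9, 11832, 10105 and 12339.9 RPKM in the control and 10994, 11364, 13852, 10735 and 12632 RPKM in ΔadmA. They were 11355, 8834, 8330.1, 9867 and 10676 RPKM in ΔadmB and 11443, 8699, 13145, 9256 and 10764 RPKM in ΔadmAΔadmB. The highest library was 1.66 times the lowest, the smallest such ratio of the 150 members, and the strains overlapped. The next in order of SD were AO090011000774, AO090011000901, hhtA (0.23), AO090003001227, AO090012000676, AO090005001059, skpA (0.26), pps1 (0.27) and AO090003000947.

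For hhtA the levels were 13992, 20534, 17645, 23075 and 15038 RPKM in the control, 12802, 17591, 19276, 17514 and 14284 RPKM in ΔadmA, 16006, 15866, 16981, 21813 and 21324 RPKM in ΔadmB and 15004, 14329, 17797, 17691 and 16466 RPKM in ΔadmAΔadmB. Each strain's range held values found in the others.

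The most variable members were AO090023000612 (SD 5.96), AO090012000517 (4.97), AO090003000005 (3.80), AO090011000535 (3.04), AO090103000445 (2.95), AO090005000583 (2.58), AO090010000188 (2.55), AO090005000502 (2.44), AO090011000414 (2.31) and AO090001000447 (2.27), none of which has a symbol. The first 4 of these separated the 2 sets of libraries, as described next. AO090005000502 was instead highest in replicate 1 of ΔadmA at 81929 RPKM and of ΔadmB at 14764 RPKM. In the control and ΔadmAΔadmB its highest library was replicate 3, at 33178 and 41923 RPKM.

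**Figure D3:**
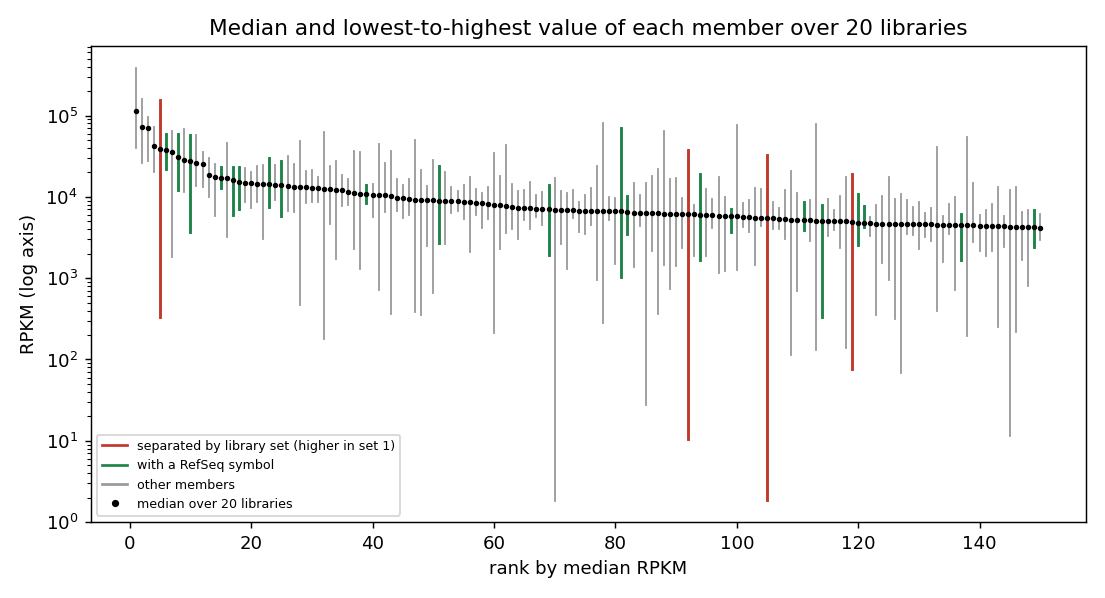
Lowest, median and highest RPKM over the 20 libraries for the members in order of rank, on a log axis, as a line with a dot, red where the gene is higher in all libraries of set 1, green where it has a symbol and grey otherwise. The highest library is under 4 times the lowest for 72 members and over 100 times for 19.

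Between the 2 sets of libraries, 5 members did not overlap, 4 of them higher in set 1 and 1 lower. That is 3.33% of the members, against 6 of all 10652 genes tested (0.0563%), 5 of them higher (0.0469%) and 1 lower (0.00939%). The 5 members and the other gene, cnaB (AO090701000094), were thus all such genes. A gene high in set 1 but low in set 2 can become a member through the 12 libraries of set 1. Those libraries are the majority, so the choice of members favours such genes. This holds for AO090023000612, AO090012000517, AO090003000005 and AO090011000535, whose set 2 medians were below the level of rank 150.

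AO090003000005, with a median of 39054.9 RPKM, stood at 70372, 483, 503, 332 and 43103 RPKM in the control and 82085, 381, 359, 35007 and 102915 RPKM in ΔadmA. It stood at 91020.4, 521, 21797, 141925 and 141252 RPKM in ΔadmB and 120610.0, 665, 642, 118954 and 155920.0 RPKM in ΔadmAΔadmB. Its 12 libraries of set 1 lay between 21796.6 and 155920.0 RPKM and its 8 libraries of set 2 between 332.3 and 664.8 RPKM, in every strain alike. The difference of the set means was 7.42 on the log2 scale.

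AO090023000612 stood at 5525, 1.94, 2.19, 1.85 and 28046 RPKM in the control and 11918, 2.3, 2.63, 9240.4 and 14970.2 RPKM in ΔadmA. It stood at 7872, 3.12, 6671, 27556 and 5443 RPKM in ΔadmB and 2514, 2.3, 2.9, 27482 and 32236 RPKM in ΔadmAΔadmB. The lowest library of set 1 was at 2513.5 RPKM and the highest of set 2 at 3.12 RPKM, a difference of set means of 11.71 on the log2 scale.

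AO090012000517 had a lowest, median and highest level of 1884.5, 13034.7 and 37296.9 RPKM in set 1, and of 10.4, 13.7 and 15.8 RPKM in set 2. AO090011000535 had 3953.4, 9129.2 and 19254.3 RPKM in set 1, and 75.4, 152.1 and 260.1 RPKM in set 2. The differences of the set means were 9.72 and 5.89 on the log2 scale. AO090005001595 went the other way, at 2288.9, 7096.2 and 12351.1 RPKM in set 1 and 12593.5, 18615.8 and 36612.4 RPKM in set 2. Its gap was narrow, since the lowest library of set 2 was 1.02 times the highest of set 1, and 4 members rather than 5 were free of overlap once each library was scaled to the same sum.

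osm1 had the same pattern with 1 exception. Its levels were 26774, 1472, 1749, 1882 and 24471 RPKM in the control and 7549.5, 1698, 1539.5, 5664 and 41816 RPKM in ΔadmA. They were 10903, 1025, 1157, 71103 and 50714 RPKM in ΔadmB and 28996, 1026, 1358, 28867 and 32762 RPKM in ΔadmAΔadmB. The 8 libraries of set 2 lay between 1025.2 and 1882.4 RPKM, and 11 of the 12 of set 1 at 5663.8 RPKM or more. Replicate 3 of ΔadmB, in set 1, was at 1156.8 RPKM, and without that library 6 members were free of overlap.

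The genes next to the 4 members higher in set 1 in the order of the reference assembly ASM18445v3 overlapped between the sets. AO090003000004 was at 576.0 to 1144.5 RPKM in set 1 and 819.1 to 1072.2 RPKM in set 2, and AO090023000611 at 4.44 to 25.8 RPKM and 8.05 to 18.1 RPKM.

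Set 1 makes up 4 of the 5 ΔadmB libraries and 2 of the 5 control libraries. The members higher in set 1 also had large differences of strain means that did not pass the test. For AO090023000612 the ΔadmB minus control difference was 4.58 on the log2 scale (limma, adjusted p = 0.74), and −0.11 with the set as a covariate. For AO090012000517 it was 4.69 (adjusted p = 0.69), and 0.88 with the set as a covariate. For AO090003000005 it was 3.27 (adjusted p = 0.72), and 0.33 with the set as a covariate. These genes were picked for their separation by set, so a smaller difference with the set as a covariate follows from that choice. It is no separate result. What the sets have to do with these levels was not tested.

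**Figure D4:**
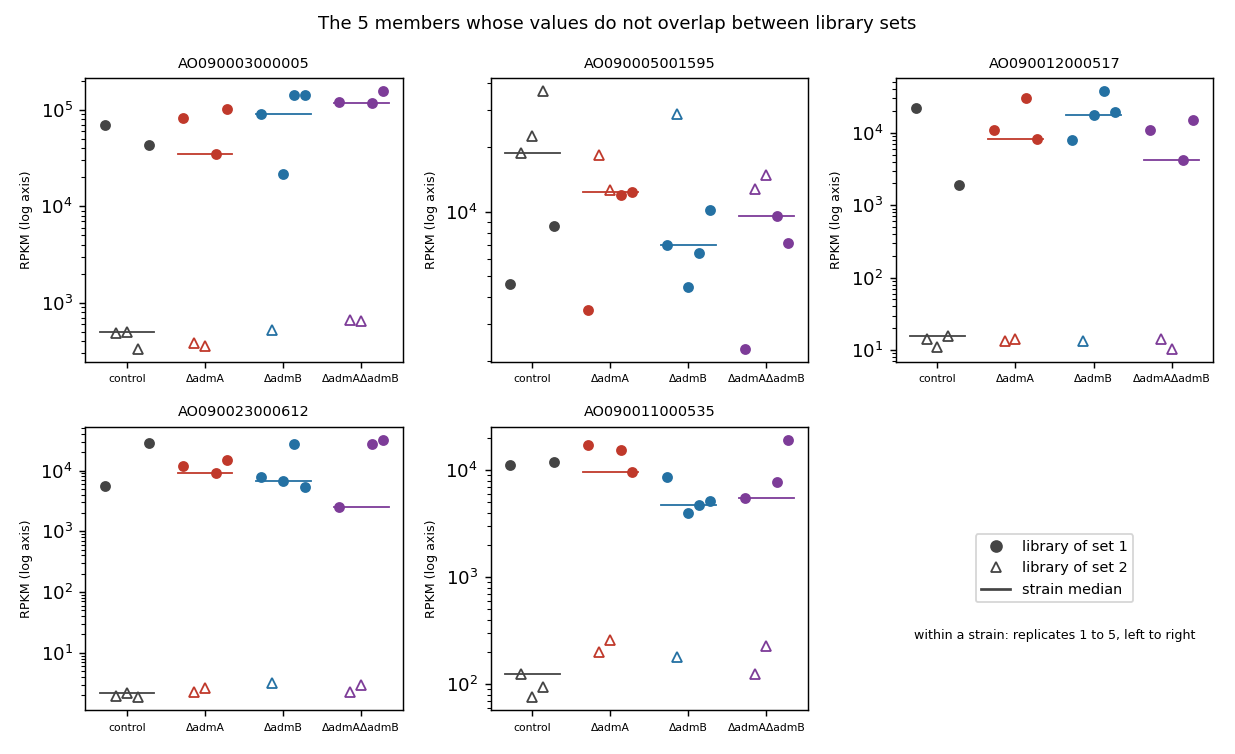
RPKM on a log axis of the members whose libraries do not overlap between set 1 (filled circles) and set 2 (open triangles), by strain, with a line at the strain median. Of the genes shown, 4 sit higher in the 12 libraries of set 1 and AO090005001595 sits lower.

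Replicate 1 of the 4 strains also stood apart from replicates 2 to 5 for 5 members (3.33%), against 132 genes tested (1.24%), higher and lower in equal number (0.62% each). AO090120000080 was at 60348.4 to 72947.7 RPKM in replicate 1 and 20329.1 to 53567.2 RPKM in the others, and AO090003001047 at 16773.1 to 25656.6 and 6593.6 to 15999.1 RPKM. AO090009000698, AO090701000013 and AO090020000684 were lower in replicate 1, the first at 13435.5 to 17419.9 RPKM against 19732.7 to 57542.7 RPKM. All 4 libraries numbered 1 are of set 1, so within set 2 this could not be examined.

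The comparison of strains asked which of these abundant genes differ when admA, admB or both are deleted. Of the 150, 2 were lower in ΔadmA than in the control, 3 were higher in ΔadmAΔadmB than in ΔadmA, and no other pairwise difference passed the test. With limma on all 10652 genes, 2 members were called lower in ΔadmA than in the control and none higher, against 115 genes called (1.08%), of which 63 were lower (0.591%) and 52 higher (0.488%). An unadjusted p under 0.05 was found for 12 members (8%), against 10.3% of genes. Between ΔadmAΔadmB and ΔadmA, 3 members were called, all higher in the double deletion, against 189 genes called (1.77%), of which 89 were higher (0.836%) and 100 lower (0.939%). Here 12 members (8%) had an unadjusted p under 0.05, against 10.7% of genes. Both comparisons use the same 5 ΔadmA libraries. A difference among any of the 4 strains was called for 4 members, against 192 genes (1.8%). An unadjusted p under 0.05 was found there for 22 members (14.7%), against 12.3% of genes.

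No member was called by limma in ΔadmB against the control, where no gene was called (0%), and 29 members had an unadjusted p under 0.05 (19.3%), against 864 genes (8.11%). The median log2 difference of the members was 0.21, that of all genes tested −0.00, and 92 members (61.3%) had a positive difference, against 49.7% of genes. In ΔadmAΔadmB minus control, which uses the same control libraries, 93 members (62%) had one, against 48.5% of genes. This fit did not scale libraries to one sum. The RPKM sums were 4053109 to 4664311 in the control, 4266177 to 5401733 in ΔadmB and 3988704 to 5163347 in ΔadmAΔadmB. What the sums have to do with these shifts was not tested. For ΔadmB minus control with the set as a covariate, 32 members had an unadjusted p under 0.05 (21.3%), against 7.59% of genes, and the median was 0.19. No member was called in ΔadmAΔadmB against the control (0% of genes), where 3 (2%) had an unadjusted p under 0.05, against 4.87% of genes. Nor was any called in ΔadmAΔadmB against ΔadmB (0% of genes), where 21 (14%) had one, against 5.75% of genes. None was called for the interaction, the difference of the admB effect with and without admA (0% of genes). There 23 members (15.3%) had an unadjusted p under 0.05, against 6.51% of genes. The smallest adjusted p over the members was 0.59, 0.97, 0.80 and 0.56 in these comparisons by limma. The unadjusted counts are not counts of independent genes, since members vary together. AO090003000872 and AO090005001601, both among those counted for ΔadmB minus control, had r = 0.96 over the libraries. ΔadmB minus control, ΔadmAΔadmB minus ΔadmB and the interaction also use the same ΔadmB libraries.

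The called members have no symbol. AO090011000414 had the largest difference of them. Its levels were 4546, 4379, 4768, 6259 and 3919.8 RPKM in the control and 4192, 244, 149, 68.8 and 94.3 RPKM in ΔadmA. They were 6987, 7744, 9448, 10855 and 8393 RPKM in ΔadmB and 5687, 5941, 2666, 5048 and 2132 RPKM in ΔadmAΔadmB. Replicates 2 to 5 of ΔadmA were below every library of the other strains, while replicate 1 of ΔadmA was within the range of the other strains.

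The ΔadmA minus control difference of AO090011000414 was −4.22 on the log2 scale (SE 0.75, limma, adjusted p = 0.013), and ΔadmAΔadmB minus ΔadmA was 3.97 (SE 0.75, adjusted p = 0.0095). Without replicate 3 of ΔadmA the first was −4.04 (adjusted p = 0.051). In ΔadmB all 5 libraries were above all 5 of the control, the only member of which this was so (0.667% of members, against 1.12% of genes tested without overlap and 0.544% higher). That difference was 0.86 (SE 0.75, adjusted p = 0.75).

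AO090026000078 stood at 6040.1, 18409, 11703, 13998 and 12476 RPKM in the control and 5013, 7037, 4625, 1712 and 2874 RPKM in ΔadmA. It stood at 13453, 27637, 20915, 12548 and 22332 RPKM in ΔadmB and 10649, 21079.6, 12684, 12027 and 12129 RPKM in ΔadmAΔadmB. ΔadmA was low in all replicates but overlapped the control, whose replicate 1 was at 6040.1 RPKM. The ΔadmA minus control difference was −1.63 (SE 0.36, limma, adjusted p = 0.036) and had an adjusted p of 0.053 when libraries were scaled to the same sum. ΔadmAΔadmB minus ΔadmA was 1.8 (adjusted p = 0.014), with no overlap of the groups.

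AO090103000076 stood at 10782, 10193, 7592, 9301 and 29021 RPKM in the control and 5246, 3227, 3741, 2005 and 718 RPKM in ΔadmA. It stood at 11313, 17038, 14954, 44732 and 29180.5 RPKM in ΔadmB and 8352, 12227, 5101, 31454 and 21606 RPKM in ΔadmAΔadmB. All 5 ΔadmA libraries lay below all 5 of the control. The ΔadmAΔadmB minus ΔadmA difference was 2.38 (SE 0.57, limma, adjusted p = 0.038), and ΔadmA minus control was −2.25 (adjusted p = 0.07). With libraries scaled to the same sum the latter was −2.23 and passed the threshold narrowly (adjusted p = 0.05 as rounded), so that 2 members were called lower there too, AO090011000414 and this one.

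AO090102000336 was called only for a difference among the 4 strains (adjusted p = 0.034 by limma's F test). Its levels were 3108, 9022, 3758, 3906 and 10702 RPKM in the control and 4359, 1091, 382, 207 and 195 RPKM in ΔadmA. They were 3533, 6235, 9843, 54529 and 11412 RPKM in ΔadmB and 4534, 6713, 1745, 9551 and 6007 RPKM in ΔadmAΔadmB. As for AO090011000414, replicate 1 of ΔadmA was within the range of the other strains and replicates 2 to 5 were lower. Replicate 4 of ΔadmB was the highest library.

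Without replicate 1 of ΔadmA, 5 members were called lower in ΔadmA than in the control by limma, which were AO090011000414 (−5.24, adjusted p = 2.4e-07), AO090026000078 (−1.73, 0.021), AO090102000336 (−3.89, 0.0049), AO090103000076 (−2.53, 0.027) and AO090103000445 (−5.81, 0.017). The last stood at 8859, 1504, 767, 169.8 and 1.84 RPKM in ΔadmA and 13697, 5091, 16334, 13993 and 2963 RPKM in the control. Without replicate 3 of ΔadmA no member was called in this comparison, and 1 was called without replicate 2, 3 or 4 of the control, 4 or 5 of ΔadmA or 3 of ΔadmB. With the libraries of set 1 alone, none of the 150 was called in any of these comparisons. That fit holds only 2 control and 3 ΔadmA libraries, replicate 1 of ΔadmA among them.

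Without overlap between ΔadmA and the control were 3 members (2%, against 1.98% of genes tested), 2 lower (1.06% of genes) and 1 higher (0.92% of genes). They were AO090103000076, AO090166000046 and AO090026000656. AO090166000046 stood at 5424, 5235, 5379.5, 6362 and 6356 RPKM in the control and 4036, 4628, 4115, 4091 and 4126 RPKM in ΔadmA, with a difference of −0.45 (SE 0.17, limma, adjusted p = 0.29). AO090026000656 stood at 8797, 10360.1, 6845, 7479 and 9960.0 RPKM in the control and 10678, 10366, 11214, 11025 and 10479 RPKM in ΔadmA, with a difference of 0.33 (SE 0.23, adjusted p = 0.72). Between ΔadmAΔadmB and the control no member was free of overlap (0.601% of genes tested were).

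Of the 21 members with a symbol none was called. The smallest adjusted p among them was that of pps1, for ΔadmAΔadmB minus ΔadmA, at 0.50 on the log2 scale (SE 0.15, limma, adjusted p = 0.12). pps1 stood at 5552, 4757, 4116, 3880.4 and 4534 RPKM in ΔadmA and 5262, 6340.2, 6016, 6296 and 8701 RPKM in ΔadmAΔadmB, with 1 ΔadmA library within the range of the double deletion.

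**Figure D5:**
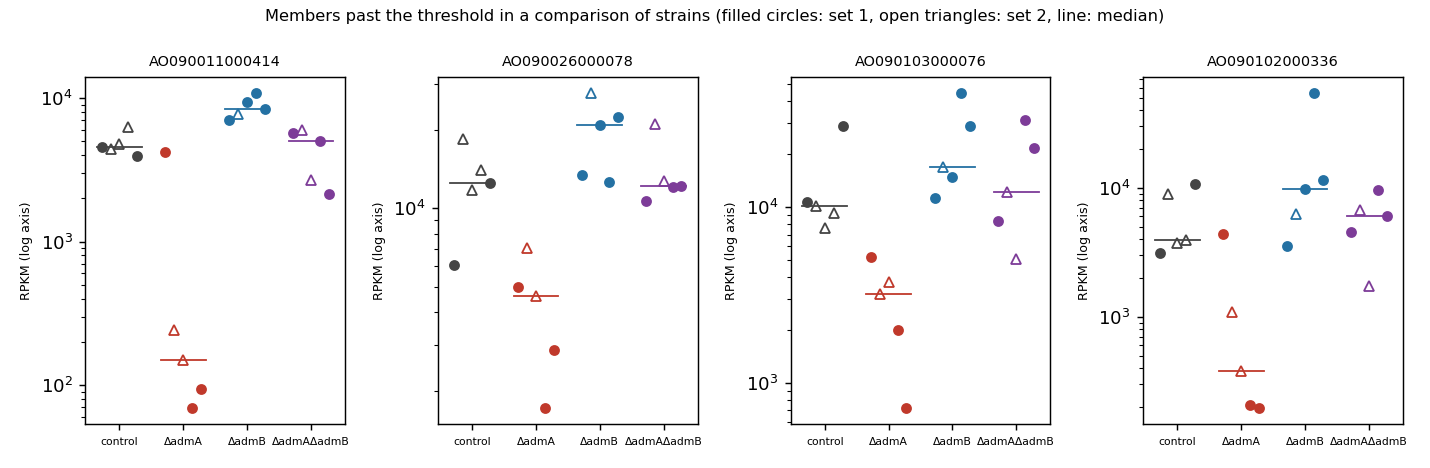
RPKM on a log axis of the 4 members called in a strain comparison, by strain, with filled circles for libraries of set 1, open triangles for set 2 and a line at the strain median. The ΔadmA libraries are low apart from replicate 1 for AO090011000414 and AO090102000336.

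Pairs of members were compared over the 20 libraries by Pearson's r of log2(RPKM + 1), as a description, since libraries share strain, set and depth. The 11175 pairs had a median r of 0.04, with 56 pairs over 0.9. The called members AO090103000076 and AO090102000336 had r = 0.92. Among genes with symbols, fdh and AO090001000447 had r = 0.96. Of 7 pairs of members next to each other in the reference order, AO090005000386 and AO090005000387 had r = 0.97 and sod1 and AO090020000520 had r = 0.77, while artA and AO090120000256 had r = −0.04 and AO090023000798 and AO090023000799 had r = −0.18.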

How the data were processed

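The 20 libraries are wheat bran cultures of 4 strains, 5 libraries each. The authors' deposited values are RPKM, per the file headers. The submitters' processing notes list TopHat2 2.0.9, Cufflinks 2.1.1, CASAVA 1.8.2 and FastQC 0.10.1 without their roles, with build and annotation not given in the sources used here. Symbols and gene order came from RefSeq's table of ASM18445v3, which matched all 12074 identifiers.

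Genes reaching 1 RPKM in 5 or more libraries (10652, all 150 members among them) were fitted as log2(RPKM + 1) with limma 3.58.1 in R 4.3.3, with a mean per strain over all libraries, an eBayes trend and no block. Tests were two-sided, with Benjamini-Hochberg adjustment over all genes and a threshold of 0.05. Fold changes on this scale understate the change of low genes. The fitting was tested on simulated data without replicate or set structure, with changes placed only in genes of low residual SD. That run therefore does not check calls for variable members. RPKM carries no read count, so counting error is unknown.

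The sets came from the steps of 1716 genes averaging under 1.5 RPKM. Of the step ratios already near their cluster, 91.5% to 100.0% lay within 0.00015 log units of it within a set, and 5.5% to 27.1% between sets. Ratios further from the cluster were not counted. The members, lists and tests were chosen with earlier results of these data known. The text names the 20 leading members, every member with a symbol, the 10 most and least variable, all called members and those near rank 150. Genes named for sets, replicate 1, overlap or correlation were picked with their values known, as was the comparison by set. The symbol sam50 was dropped from the nitrogen list by hand after the fit had been seen, because it does not belong to that function. Protein and promoter features were not analysed here. Alternatives were the pseudocount of 0.1, no filter, scaling to one sum, a replicate block, leaving out each library, the set, and other sizes of the group.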

Additional observations from a re-analysis of the deposited data

Results flagged for a closer look

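Groups of 5 libraries were examined for 57 named members on the log2 scale (228 groups) and for the share of the 150 genes (4 groups). In 24 of these 232, all of them of single members, 1 library lay apart from the other 4, its gap over the group's range being above Dixon's 95% critical value. Chance flags about 1 group in 20, and the genes are not independent.

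Replicate 5 of the control accounts for 9. It was high for AO090026000175 (218541 RPKM, others 42305.9 to 64495.3) and AO090103000076 (29020.8 RPKM, others 7592.5 to 10782.4). It was low for AO090005001622 (44651.5 RPKM), AO090120000080 (23557.9 RPKM), glpV (5232.17 RPKM), sod1 (5925.02 RPKM), AO090010000188 (221.0 RPKM), fdh (1262.45 RPKM) and aspf22 (1841.32 RPKM). In AO090005001622 replicate 5 was also low in ΔadmA (27537.8 RPKM) and in ΔadmAΔadmB (46813.4 RPKM).

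In ΔadmB, replicate 2, the only library of set 2 in that strain, was low for AO090012000517 (13.4 RPKM), AO090023000612 (3.12 RPKM) and AO090011000535 (179.68 RPKM). Replicate 4 of ΔadmB was low for cyp4 (5259.06 RPKM), AO090010000188 (27.19 RPKM) and AO090124000071 (215.37 RPKM), and high for AO090005001059 (8465.83 RPKM). Replicate 1 of ΔadmB was low for AO090009000698 (13435.5 RPKM) and AO090023000830 (8443.74 RPKM), and high for AO090005000502 (14763.5 RPKM). Replicate 1 of ΔadmA was high for AO090005000502 too (81929.3 RPKM), and replicate 4 of ΔadmA was high for AO090012000676 (5095.16 RPKM). Replicate 2 of ΔadmAΔadmB was high for AO090026000078 (21079.6 RPKM).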

How the results depend on the processing

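No called difference of a member changed sign under the alternatives run. With the set as a covariate, the uncalled ΔadmB minus control differences of AO090023000612 and AO090011000535 did, from 4.58 to −0.11 and from 2.05 to −0.33. Both genes were named because the sets separate them, so a shift with that covariate follows from the choice. The strains share replicate numbers, and the labels do not say what a number marks. Deviations of same-numbered libraries correlated at 0.24 to 0.44 for number 1, 0.11 to 0.21 for 2, −0.06 to 0.35 for 3, −0.22 to 0.30 for 4 and 0.03 to 0.52 for 5, and 11 of 20 libraries correlated best with their own number. Since not every pair exceeded 0.1, the numbers were not taken as pairing, although those of 1 and 2 all did. This limit is a working rule, and it does not show that same-numbered libraries are unrelated. The replicate number took a median of 39.0% of a member's variance. With the replicate block, 201 genes were called for ΔadmA minus control (115 without the block) and 299 by the F test (192 without the block). For ΔadmAΔadmB minus ΔadmA the block called 289 genes (189 without it), 5 of them members. There the block added AO090001000186, AO090166000046 and AO090103000445 and lost AO090103000076 (limma, adjusted p = 0.055). AO090102000336 lost its F test (adjusted p = 0.063).

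Only with set 1, the calls were 3 genes and 0 members for ΔadmA minus control, 2 genes for ΔadmB minus control, 2 for ΔadmAΔadmB minus control, 2 genes and 0 members for ΔadmAΔadmB minus ΔadmA, 1 for the interaction, and 4 genes and 0 members by the F test. Only with set 2 they were 36 genes and 1 member, 11 genes for ΔadmB minus control, 7 genes and 0 members for ΔadmAΔadmB minus ΔadmA, 8 for ΔadmAΔadmB minus ΔadmB, 5 for the interaction, and 17 genes and 0 members by the F test. These fits hold fewer libraries. With the set as a covariate the interaction called 3 genes.

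With each library left out in turn, ΔadmA minus control called 24 to 307 genes and 0 to 5 members, ΔadmB minus control 0 to 1 genes, ΔadmAΔadmB minus control 0 to 2, ΔadmAΔadmB minus ΔadmA 98 to 307 genes and 2 to 5 members, ΔadmAΔadmB minus ΔadmB 0 to 1, the interaction 0 to 66 genes and 0 to 1 members, and the F test 55 to 343 genes and 2 to 7 members. The shares then ranged from 38.7% to 41.5% in the control, 37.9% to 39.8% in ΔadmA, 40.6% to 41.3% in ΔadmB and 39.6% to 40.8% in ΔadmAΔadmB. Members without overlap between sets numbered 5 to 6.

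With 100 members the shares were 34.3%, 32.7%, 34.7% and 34.5% (control, ΔadmA, ΔadmB, ΔadmAΔadmB), and with 200 they were 45.1%, 44.1%, 45.3% and 45.1%. Over the sum without the 12 genes set aside they were 45.0% in ΔadmB and 43.8% in ΔadmAΔadmB. Ranking by the mean kept 135 of the 150, by the control alone 124, by set 1 137, by set 2 131 and after scaling 145. Over 27 alternatives the ΔadmA minus control difference of AO090011000414 lost its call in 2, and that of AO090026000078 in 11; AO090103000076 lost its call for ΔadmAΔadmB minus ΔadmA in 15, and AO090102000336 its F test in 12. Depth in reads is unknown, so the counting error of low values, such as the 1.85 to 3.12 RPKM of AO090023000612 in set 2, cannot be given.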
